A study of Mus musculus with 6 samples.

Results

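The nuclei described here carried transcripts of inflammatory chemokines, Tnf and immediate-early genes. They were chosen as nuclei with at least 200 detected genes, at most 5% mitochondrial UMIs (unique molecular identifiers, each counting 1 captured transcript), 4 or more UMIs summed over Ccl3, Ccl4, Ccl2, Tnf, Egr1, Egr2, Egr3, Atf3, Ier2 and Ier3, and fewer than 2 UMIs over the macrophage genes F13a1, Mrc1, Cd163, Cd209f and Cbr2. Of 33335 nuclei in the deposited matrices, 31738 passed the limits on genes and mitochondrial UMIs, 30696 of these had fewer than 2 macrophage UMIs and are called eligible, and 541 eligible nuclei met the whole rule and are called members. Members were 1.76% of eligible nuclei.

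The study sequenced nuclei sorted for PU.1, a transcription factor of the myeloid lineage, from the hippocampus of mice aged 9.5 months. Each of 6 genotypes was 1 library made from the pooled hippocampi of 3 mice, so no genotype had a replicate library. P301S/E4/TREM2+ and P301S/E4/TREM2- carried mutant human tau (P301S) and human APOE4 (E4), with or without TREM2, a lipid-sensing receptor of microglia. E4/TREM2+ and E4/TREM2- carried APOE4 without mutant tau, and P301S/EKO/TREM2+ and P301S/EKO/TREM2- carried mutant tau with Apoe knocked out. No group was free of both mutant tau and APOE4, so every comparison is between engineered genotypes. The labels name no treatment, promoter or sex.

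Microglia are the resident macrophages of the brain. When they sense tissue damage or microbial products, NF-kB and the mitogen-activated kinases switch on chemokine and cytokine genes within a short time, among them Ccl3 and Ccl4, which attract leukocytes. Immediate-early genes such as Egr1 and Atf3 encode transcription factors that are induced by the same signals without new protein synthesis, and they are also known to rise when tissue is dissociated or handled before RNA is fixed.

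The libraries held 3723 to 7338 deposited nuclei each, and a deposited nucleus had a median of 494 genes. Trem2 over all eligible nuclei was 1130, 938 and 988 CPM (UMIs of a gene per 1e+06 UMIs) in P301S/E4/TREM2+, E4/TREM2+ and P301S/EKO/TREM2+, and 589, 362 and 473 CPM in the TREM2- library of the same backgrounds, so the TREM2- libraries were lower without being at 0. Apoe was 13.3 and 8.67 CPM where Apoe was knocked out, against 116 to 1175 CPM in the other 4. Across libraries, 115 barcodes were shared by 2 or more matrices. Members held 2 nuclei with such a barcode, and no shared barcode belonged to more than 1 member. No doublet caller was run.

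Members carried the defining markers of microglia. Of 541 members, 537 had 3 or more UMIs over 23 microglia markers such as Csf1r and Cx3cr1. By library that was 95.7 to 100% of members and 98.3 to 100% of the comparison nuclei described further on. This limit therefore does not set members apart from comparison nuclei. The summed level of those markers was 15811 to 30477 CPM in members of the 6 libraries and 23860 to 32530 CPM in comparison nuclei. T and NK cell markers were near absent: 7 of 9, including Cd3e, Cd3g and Nkg7, had no UMI in any member. Of 7 neutrophil markers 3 were detected in members, summing to 269 to 537 CPM over the libraries (296 to 472 CPM in comparison nuclei), while S100a9, Retnlg, Mmp9 and Ly6g were at 0. Of 11 monocyte markers 9 were detected, at 55.1 to 148 CPM (11.2 to 169 CPM in comparison nuclei), while Ly6c2 and F10 were at 0. Neuron markers were different, with 14 of 14 detected in members. Their summed level ran from 106 to 9838 CPM over the libraries (median 2821) in members and from 165 to 7436 CPM (median 921) in comparison nuclei. Astrocyte markers were also all detected (8 of 8), at 257 to 5333 CPM (median 502) in members and 580 to 1735 CPM (median 959) in comparison nuclei. Only in P301S/EKO/TREM2- were they higher in members, 5333 against 682 CPM. Among nuclei with under 2 neuron UMIs that library had 492 against 682 CPM.

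The neuron transcripts came from few nuclei. Of 541 members, 31 had 2 or more UMIs over the neuron markers and 14 had 10 or more, and these 14 held 9.74% of all member UMIs. In P301S/EKO/TREM2-, 1 such nucleus held 34.3% of the member UMIs of its library, and the share was 29.2% in E4/TREM2+ with 6 nuclei and 22.6% in E4/TREM2- with 5. Of the 14, 12 met the rule through immediate-early UMIs alone. Most fits and mean ratios that weigh UMIs are therefore given with and without nuclei of 2 or more neuron UMIs. This limit was set after the data had been seen. Members also had more nuclei of high UMI count: 14.0% had over 3 times the median UMIs of their library, against 2.22% of the other eligible nuclei. These 76 nuclei held 54.7% of member UMIs, and 51 of them had under 2 neuron UMIs.

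The 10 genes of the rule are given first, as a description with no test, since their UMIs chose the members. Ccl4 and Ccl3 were the most abundant of the 10. Ccl4 gave 40.9% of the 3928 rule UMIs in members and was seen in 416 of 541 members (76.9%). Ccl3, its neighbour on chromosome 11 (83647844 to 83649355 for Ccl3 and 83662584 to 83664683 for Ccl4, GRCm38), gave 24.9% and was seen in 378 members (69.9%). Ccl2, the monocyte attractant read by CCR2, was seen in 88 members (16.3%). Tnf, the cytokine that feeds back on NF-kB, was seen in 118 members (21.8%).

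The immediate-early genes were each seen in fewer members than Ccl4, Ccl3 or Tnf. Egr1, a zinc-finger transcription factor, was detected in 116 members (21.4%), and its relatives Egr2 and Egr3 in 53 and 54. Atf3, a stress-induced factor of the ATF/CREB family, was detected in 96 members (17.7%). Ier2 was detected in 98 members and Ier3, which modulates cell survival, in 78. The make-up differed among libraries: Atf3 was detected in 0 of 34 members of P301S/EKO/TREM2- and in 27.0% of members of P301S/E4/TREM2-, and Ccl2 ranged from 4.29% of members in E4/TREM2+ to 30.7% in P301S/E4/TREM2-.

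Members formed the upper end of a continuous range. Of the eligible nuclei, 83.9% had no UMI of the 10 genes and 3239 had 1. Just outside the limit, 313 nuclei had 3 such UMIs, and just inside it, 155 members had 4. The median member had 6 and the highest had 72, with 82 members at 10 or more. The members, 1.76% of eligible nuclei, held 40.1% of the 9790 rule UMIs. By gene, that share was 66.5% for Egr3, 44.2% for Ccl3, 43.8% for Ccl4, 31.4% for Atf3, 22.1% for Ier2 and 21.4% for Ier3, so most Ier2 and Ier3 UMIs lay in other nuclei.

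Both sets of rule genes met in the same nuclei. Of 541 members, 287 (53.0%) had UMIs of the chemokine and Tnf genes together with immediate-early UMIs, 223 had only the former and 31 only the latter.

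The sequences before the transcription starts are shown for 3 of these genes because each holds 1 recognisable element of the 6 searched. RefSeq promoters on build GRCm38.p6 were matched for 5 of the 10 genes (Ccl3, Tnf, Egr2, Atf3 and Ier3), and Egr2 has 5 listed starts, of which 1 is shown. Each sequence is the 250 bases before the start, written 5′ to 3′ on the gene's strand, and capitals mark the element. Tnf lies at chr17:35202008-35202257 on the minus strand, Egr2 at chr10:67537619-67537868 on the plus strand and Ier3 at chr17:35821463-35821712 on the plus strand.
Tnf: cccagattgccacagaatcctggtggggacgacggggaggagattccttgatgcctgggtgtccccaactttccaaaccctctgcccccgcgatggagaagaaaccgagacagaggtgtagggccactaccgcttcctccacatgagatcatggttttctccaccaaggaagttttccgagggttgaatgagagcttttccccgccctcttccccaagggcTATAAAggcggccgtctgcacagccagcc
Egr2: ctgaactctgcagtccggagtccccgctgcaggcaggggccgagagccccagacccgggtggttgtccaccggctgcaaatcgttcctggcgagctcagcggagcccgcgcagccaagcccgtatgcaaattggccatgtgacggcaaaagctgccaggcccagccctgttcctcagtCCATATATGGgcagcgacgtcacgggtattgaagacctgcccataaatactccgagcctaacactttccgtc
Ier3: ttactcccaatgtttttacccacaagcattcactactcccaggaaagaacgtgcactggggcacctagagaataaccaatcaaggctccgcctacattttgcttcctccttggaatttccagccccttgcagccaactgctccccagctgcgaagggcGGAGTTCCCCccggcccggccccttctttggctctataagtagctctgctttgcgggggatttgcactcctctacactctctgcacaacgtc

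In Tnf the capitals are the TATA box TATAAA, 29 to 24 bases before the start, a motif found in 12.3% of the 32536 mouse promoters of the same window. In Egr2 they are a CArG box, the element read by serum response factor, 72 to 63 bases before the start and found in 1.48% of promoters. In Ier3 they are an NF-kB site on the minus strand, 92 to 83 bases before the start and found in 7.28%. Both strands were searched, and no element overlapped another. The AP-1 site TGANTCA (6.73% of promoters), the cyclic AMP response element TGACGTCA (1.56%) and the EGR site GCGNGGGCG (4.74%) were not in the windows of these 5 genes. A match is a description of the letters and was not tied to the counts.

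To show how far the 2 sets of rule genes met in the same nuclei apart from the summed threshold, nuclei were chosen by one set and the other set was read. The 10 genes were put together with results of these nuclei known, so these ratios are a description, with no test. Nuclei with 2 or more UMIs of Ccl3, Ccl4, Ccl2 and Tnf were set against nuclei of the same library with 0 such UMIs, matched for UMIs outside the 10 genes. The 6 immediate-early genes summed to 530 CPM in chosen and 96.7 CPM in matched nuclei of P301S/E4/TREM2+, and to 436 against 66.8 CPM in P301S/E4/TREM2-. In the libraries without mutant tau they were 269 against 215 CPM in E4/TREM2+ and 455 against 78.4 CPM in E4/TREM2-. In the libraries without Apoe they were 271 against 58.1 CPM in P301S/EKO/TREM2+ and 391 against 16.4 CPM in P301S/EKO/TREM2-. The sum of the immediate-early genes was thus higher in the chosen nuclei of every library, and least so in E4/TREM2+. The mean log2 ratio was 2.41 ± 1.26 (SD, n = 6 libraries), a 5.32-fold geometric mean. Without nuclei of 2 or more neuron UMIs it was 2.81 ± 0.87 (SD, n = 6 libraries). By gene, Egr1, Atf3, Ier2 and Ier3 were each higher in 6 of 6 libraries, Egr3 in 5 and Egr2 in 4. In E4/TREM2+ Egr2 had 0 UMIs in chosen and 6 in matched nuclei and Egr3 had 1 against 20, and Egr2 was at 0 in both classes of P301S/EKO/TREM2-.

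The reverse choice gave the same direction. In nuclei with 2 or more immediate-early UMIs, Ccl3, Ccl4, Ccl2 and Tnf summed to 1376 CPM in P301S/E4/TREM2+ and to 1900 CPM in P301S/E4/TREM2-, against 210 and 185 CPM in matched nuclei. The values were 361 against 218 CPM in E4/TREM2+, 591 against 142 CPM in E4/TREM2- and 753 against 150 CPM in P301S/EKO/TREM2+. In P301S/EKO/TREM2- they were 1791 CPM over 10 chosen nuclei, while the 18 matched nuclei had no such UMI. The mean log2 ratio, with 0.5 UMI added to each sum, was 2.79 ± 1.64 (SD, n = 6 libraries). Without nuclei of 2 or more neuron UMIs it was 3.36 ± 2.02 (SD, n = 6 libraries). Asking for 3 or more immediate-early UMIs gave 2.56, higher in 5 of 6 libraries. Of the 4 genes, Ccl3, Ccl4 and Ccl2 were each higher in 6 of 6 libraries, and Tnf in 4 of 6 with a mean log2 ratio of 0.91 ± 2.01.

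**Figure D1:**
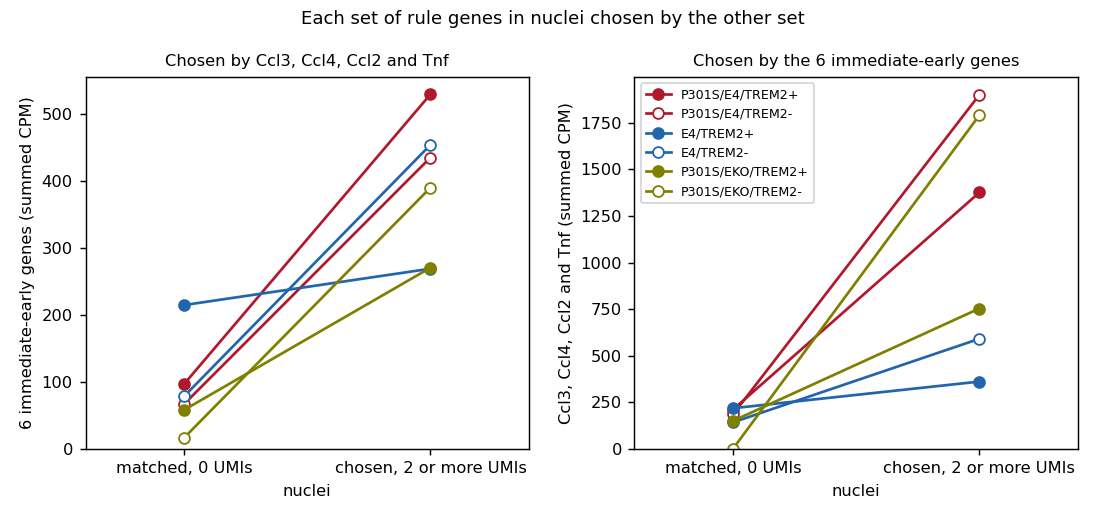
Summed CPM of the 6 immediate-early genes in nuclei chosen by Ccl3, Ccl4, Ccl2 and Tnf (left) and of those 4 genes in nuclei chosen by the immediate-early genes (right), beside matched nuclei with 0 UMIs of the choosing genes. Each line is 1 of 6 libraries, filled points are TREM2+ and open points TREM2-. All lines rise, from 16.4 to 215 CPM to 269 to 530 CPM on the left.

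Each gene was also read in nuclei with 4 or more UMIs over the other 9, set against matched nuclei with fewer. Of the 10 genes, 8 were higher in 6 of 6 libraries and Atf3 in 5 (mean log2 ratio 1.92 ± 1.84, SD, n = 6 libraries). Egr2 was higher in 5 and at 0 in both classes of P301S/EKO/TREM2-. The mean log2 ratio was 3.39 ± 0.93 for Ccl3, 3.43 ± 1.81 for Egr1 and 3.62 ± 2.00 for Egr3. The value for Egr3 rests on the 0.5 UMI added to each sum, since its comparison nuclei had no UMI in 3 libraries. Without nuclei of 2 or more neuron UMIs the 3 values were 3.89, 3.88 and 3.39, so the genes have no stable order.

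The share of members among eligible nuclei differed among libraries. It was 2.51% (151 of 6020, 95% exact binomial interval 2.13 to 2.94) in P301S/E4/TREM2+ and 2.05% (137 of 6692, 1.72 to 2.42) in P301S/E4/TREM2-. It was 1.43% (70 of 4896, 1.12 to 1.80) in E4/TREM2+ and 1.92% (88 of 4594, 1.54 to 2.35) in E4/TREM2-. It was 1.73% (61 of 3525, 1.33 to 2.22) in P301S/EKO/TREM2+ and 0.684% (34 of 4969, 0.474 to 0.955) in P301S/EKO/TREM2-. P301S/E4/TREM2+ was highest and P301S/EKO/TREM2- lowest, with no overlap between the interval of the latter and those of the other 5. All other neighbours in the order had overlapping intervals. All intervals cover counting error only and not the spread between mice.

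A threshold on raw UMIs depends on depth, and the libraries differed in it: members had a median of 1167 UMIs in P301S/E4/TREM2- and 718 in P301S/EKO/TREM2-. Each nucleus was therefore also thinned to 500 UMIs, shallower nuclei were left out, and nuclei with 2 or more UMIs of the 10 genes were counted. This left out 1453 eligible nuclei of E4/TREM2+, 406 of E4/TREM2-, 1806 of P301S/EKO/TREM2- and none of the other 3 libraries. The thinned share was 4.47% (3.96 to 5.02) in P301S/E4/TREM2+, 2.69% (2.32 to 3.11) in P301S/E4/TREM2-, 3.54% (2.95 to 4.22) in E4/TREM2+ and 3.72% (3.17 to 4.34) in E4/TREM2-. It was 2.10% (1.65 to 2.63) in P301S/EKO/TREM2+ and 1.68% (1.26 to 2.19) in P301S/EKO/TREM2-. With depth held equal, both E4 libraries without mutant tau lay above P301S/E4/TREM2-, E4/TREM2- with no overlap of the intervals, and the 2 libraries without Apoe were the lowest and overlapped each other.

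**Figure D2:**
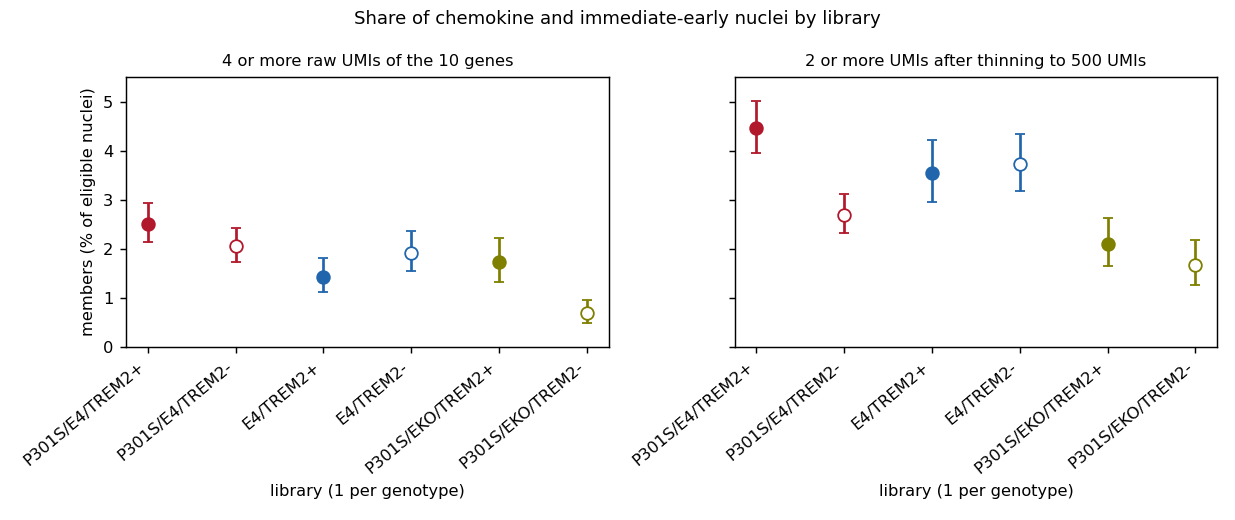
Members as a percentage of eligible nuclei in the 6 libraries, by the rule on raw UMIs (left) and after thinning to 500 UMIs (right); bars are 95% exact binomial intervals, filled points TREM2+ and open points TREM2-. P301S/E4/TREM2+ is highest in both panels (2.51% and 4.47%), while the E4 libraries without mutant tau sit lower than P301S/E4/TREM2- or beside it on the left and above it on the right.

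As a background, nuclei that should lack chemokines were read in the same way. Of 25 nuclei with many neuron and few microglia UMIs (median 2947 UMIs), 0 had a UMI of Ccl3, Ccl4, Ccl2 or Tnf, which allows a share of up to 12%, and 2 had 4 or more rule UMIs, all of immediate-early genes. Of all eligible nuclei (median 723 UMIs), 11.8% had such a chemokine or Tnf UMI, so 25 nuclei were too few to set a background below that level.

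Between TREM2- and TREM2+ the share moved both ways over the 3 backgrounds with all eligible nuclei, and 1 way among nuclei with at least 500 genes. The ratio of the share in TREM2- to that in TREM2+ was 0.816 (95% interval 0.649 to 1.03) with mutant tau and APOE4, 1.34 (0.981 to 1.83) with APOE4 alone and 0.395 (0.261 to 0.600) with mutant tau without Apoe. Over the 3 backgrounds the mean log2 ratio was -0.40 (exact sign-flip permutation p = 0.75; 3 pairs cannot give less than 0.25). After thinning the ratios were 0.602, 1.05 and 0.798, so the low ratio without Apoe was nearer to 1 and that with tau and APOE4 farther from it. Among nuclei with at least 500 genes they were 0.696, 0.843 and 0.478, all below 1 (mean log2 ratio -0.61, exact permutation p = 0.25).

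Mutant tau and APOE4 were compared in the same way, each between single libraries. With mutant tau the share was 1.75 times that of E4/TREM2+ when TREM2 was present (1.32 to 2.32) and 1.07 times that of E4/TREM2- when it was absent (0.820 to 1.39). After thinning these ratios were 1.26 and 0.722, so the direction with TREM2 absent turned. With APOE4 the share in tau mice was 1.45 times that without Apoe when TREM2 was present (1.08 to 1.95) and 2.99 times when absent (2.06 to 4.35), and 2.13 and 1.61 times after thinning. APOE4 was the factor whose ratio stayed above 1 in both TREM2 states and by both measures. These ratios for tau and APOE4 were not tested.

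The level of each of the 10 genes over all eligible nuclei does not depend on the threshold and was tested across genotypes. One additive model of TREM2, tau and APOE4 was fitted to the summed counts of the 6 libraries over 12397 genes with edgeR's quasi-likelihood test, leaving 2 residual degrees of freedom. The spread is thus estimated from how far the effects depart from adding up, not from replicate pools. In such sums, fewer nuclei with a transcript and less transcript per nucleus cannot be told apart. Genes were called at a false discovery rate of 0.05 by the Benjamini-Hochberg method. The 10 genes were put together with results of these nuclei known, and members held 40.1% of their UMIs. Counts of calls among them are therefore a description. The share of all genes called is given as a scale and not as an independent comparison.

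Of the 10 genes, 4 rose with mutant tau, where 17.7% of all genes tested were called, 8.2% upward. Tnf stood at 24.6 and 35.6 CPM in the 2 P301S/E4 libraries, TREM2+ first, and at 15.1 and 7.93 CPM in the 2 E4 ones, with no overlap (log2 fold change 1.37 ± 0.30, SE, edgeR adjusted p = 0.00929). Atf3 was 42.5 and 38.1 CPM with mutant tau and 10.9 and 21.4 CPM without (1.27 ± 0.29, edgeR adjusted p = 0.0110). Ccl4 was 192 and 138 CPM against 129 and 100 CPM (0.47 ± 0.14, edgeR adjusted p = 0.0369), and Ccl2 was 16.2 and 27.1 CPM against 11.5 and 12.4 CPM (0.78 ± 0.24, edgeR adjusted p = 0.0492). Ccl3, the partner of Ccl4, had a log2 fold change of -0.10 ± 0.21 and Egr1 of -0.82 ± 0.36, neither called. The calls for Ccl4 and Ccl2 were lost without nuclei of 2 or more neuron UMIs (edgeR adjusted p = 0.0855 and 0.111), while those for Tnf (1.30) and Atf3 (1.19) held. Without E4/TREM2-, Tnf was at 0.88 and lost its call (edgeR adjusted p = 0.124), without P301S/E4/TREM2- it was at 0.88 as well (adjusted p = 0.0525), and without E4/TREM2+ Atf3 was at 0.72 (adjusted p = 0.134). The calls for Ccl4 and Ccl2 were also lost without either E4 library.

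With APOE4 in place of no Apoe, Atf3 and Ccl4 rose, where 3.5% of all genes tested were called, 1.75% upward. Atf3 was 42.5 and 38.1 CPM in the P301S/E4 libraries and 14.4 and 11.6 CPM in the EKO ones (log2 fold change 1.63 ± 0.29, edgeR adjusted p = 0.0162), and its groups did not overlap. Ccl4 was 192 and 138 CPM against 117 and 100 CPM (0.60 ± 0.14, edgeR adjusted p = 0.0400), a call lost without nuclei of 2 or more neuron UMIs (adjusted p = 0.0745), without P301S/EKO/TREM2+ (0.323) or without P301S/EKO/TREM2- (0.0912). All 10 genes had a positive log2 fold change, from 0.40 for Tnf to 1.77 for Egr2, and the other 8 missed the threshold. The sign was not stable for 2 of them: Tnf was at -0.11 without P301S/E4/TREM2- and Egr1 at -0.20 without P301S/E4/TREM2+. Ccl3 was 107 and 78.1 CPM against 57.7 and 44.3 CPM (0.86 ± 0.21, edgeR adjusted p = 0.0552), also without overlap. The tau and APOE4 comparisons share the 2 P301S/E4 libraries.

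None of the 10 genes was called for TREM2, where 0.105% of all genes tested were called. The lowest log2 fold change was that of Egr1, -0.97 ± 0.31 (edgeR adjusted p = 0.562). Egr1 was 36.8 against 10.2 CPM in P301S/E4/TREM2+ and TREM2-, 18.9 against 8.35 CPM without Apoe, and 34.6 against 33.8 CPM in the E4 pair without mutant tau. Ccl4 had -0.34 ± 0.11 (edgeR adjusted p = 0.589) and was lower in the TREM2- library of each of the 3 backgrounds.

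**Figure D3:**
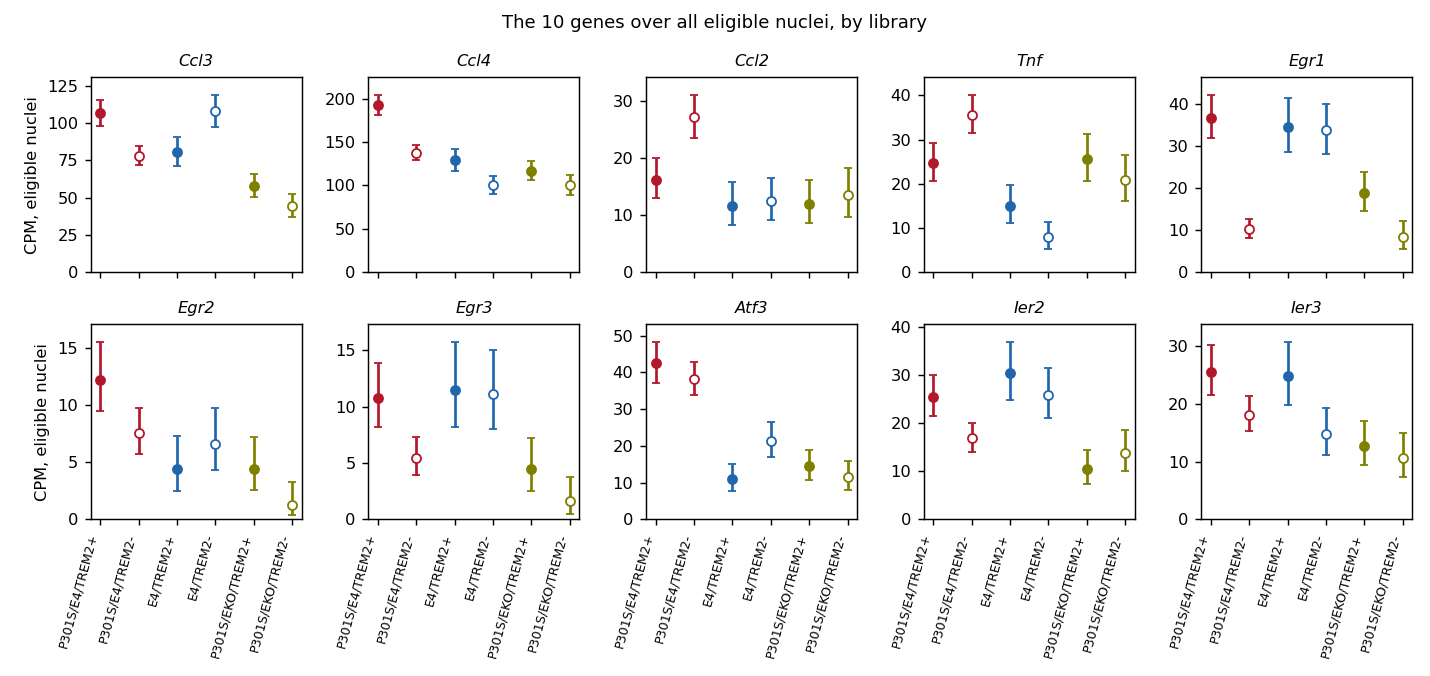
CPM of each of the 10 genes over all eligible nuclei of the 6 libraries, with 95% exact Poisson intervals for counting error; each panel has its own axis from 0, filled points are TREM2+ and open points TREM2-. Atf3 is highest in the 2 P301S/E4 libraries (42.5 and 38.1 CPM), and Egr1 is low in P301S/E4/TREM2- (10.2 CPM).

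Genes outside the rule were compared between members and up to 2 matched eligible nuclei per member (1053 in all) of the same library that had under 4 rule UMIs and whose UMIs outside the 10 genes were within 10% of the member's. The median UMI count was 947 in members and 924 in matched nuclei, against 720 in all other eligible nuclei. Counts were summed per library and class, and the 12 sums were fitted with a library term by edgeR's quasi-likelihood test with Benjamini-Hochberg adjustment. Of 3477 genes tested, 22 rose and 1 fell in members, so 0.661% were called, 0.633% upward and 0.0288% downward. The genes that rose included chemokines outside the rule, other immediate-early genes and NF-kB targets. The expression filter worked by class, so a gene low in matched nuclei could enter the test through the member sums alone. The list counts and list medians below can lean upward through this filter, and how far was not tested. With no expression filter, 65 of 17329 genes rose and 14 fell.

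Other chemokines rose in 3 of the 4 tested of the 16 listed, with a median log2 fold change of 1.69, against -0.01 over all genes tested. Cxcl10, an interferon- and NF-kB-induced ligand of CXCR3, ran from 0 to 3555 CPM (median 532) over the 6 libraries in members and from 0 to 131 CPM (median 16.4) in matched nuclei. It was higher in members of 5 libraries and had no UMI in either class of E4/TREM2- (log2 fold change 3.33 ± 0.35, SE, edgeR adjusted p = 5.04e-05). Ccl12, a CCR2 ligand in the same chromosome 11 cluster as Ccl2, was higher in members of 6 of 6 libraries. It ran from 73.4 to 1024 CPM in members and from 19.6 to 95.5 CPM in matched nuclei (2.11 ± 0.25, edgeR adjusted p = 9.87e-05). Cxcl16, a membrane-bound chemokine, rose by 1.27 ± 0.26 (edgeR adjusted p = 0.0267). Cx3cr1, the receptor of the chemokine fractalkine, had a log2 fold change of -0.11 ± 0.12 and was not called.

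Other immediate-early genes rose in 7 of 15 tested of the 44 listed, and none fell (median 0.83). Junb, an AP-1 subunit, ran from 266 to 624 CPM (median 479) in members and from 80.1 to 207 CPM (median 120) in matched nuclei, with no overlap between the classes (1.90 ± 0.18, edgeR adjusted p = 2.18e-05). Jun, its partner, rose by 1.72 ± 0.20 and Zfp36, which destabilises Tnf and chemokine mRNA, by 1.62 ± 0.18, both higher in 6 of 6 libraries. Id2 (1.15), Ier5 (1.10), Btg2 (1.05) and the survival gene Mcl1 (0.69) also rose. Fos was too low to be tested: it had 36 UMIs in members and 3 in matched nuclei.

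NF-kB targets and cytokines rose in 3 of 12 tested of the 37 listed, and all 12 had a positive log2 fold change (median 0.73). Csf1, the growth factor of microglia, ran from 0 to 612 CPM (median 241) in members and from 11.2 to 191 CPM in matched nuclei, lower in members only in E4/TREM2-, where members had none (1.95 ± 0.20, edgeR adjusted p = 2.21e-05). Nfkbiz, an inducible NF-kB cofactor, rose by 1.44 ± 0.27 and the activation marker Cd83 by 1.78 ± 0.28. Il1b was too low to be tested: members had 45.9 to 215 CPM and matched nuclei 0 to 45.8 CPM. Nfkbia, the inhibitor of NF-kB, was also not tested and had 18.4 to 108 CPM against 0 to 45.2 CPM.

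Some called genes fell outside these lists. Slc15a3, an endolysosomal peptide transporter, ran from 413 to 943 CPM in members and from 140 to 310 CPM in matched nuclei, with no overlap (1.59 ± 0.16, edgeR adjusted p = 2.18e-05). Hivep2, a zinc-finger factor, rose by 1.20 ± 0.25. Mbp, the myelin protein, fell by 1.80 on the log2 scale (SE 0.32, edgeR adjusted p = 0.0103), with 45.9 to 269 CPM in members and 20.7 to 458 CPM in matched nuclei. It was lower in members of 5 libraries and higher in P301S/EKO/TREM2-. Without nuclei of 2 or more neuron UMIs Mbp fell below the expression filter, with medians of 35.1 CPM in members and 19.5 CPM in matched nuclei, higher in members of 3 of 6 libraries. With all nuclei the summed level of 7 oligodendrocyte markers, Mbp among them, had a median of 186 CPM in members and 483 CPM in matched nuclei. The part of these nuclei or transcripts in the result was not tested.

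Over the 6 libraries together, markers of other microglial states moved less. Of 13 stage 2 genes of disease-associated microglia (DAM) tested, Lpl, the lipoprotein lipase (1.25 ± 0.19), and Csf1 rose, with a median of 0.12 over the list. No stage 1 DAM gene of 7 (median -0.03), no interferon response gene of 12 (median 0.31), no heat shock gene of 6 (median 0.22) and no homeostatic microglia gene of 17 (median -0.26) was called. All 12 interferon genes lay above 0 and 16 of 17 homeostatic genes below. The summed interferon list differed by library. It was 7569 CPM in members against 1282 CPM in matched nuclei of P301S/EKO/TREM2-, and 5269 against 2484 CPM in P301S/EKO/TREM2+. Elsewhere it was 3805 against 3028 CPM in P301S/E4/TREM2-, 948 against 772 CPM in E4/TREM2+ and 468 against 447 CPM in E4/TREM2-. Only in P301S/E4/TREM2+ was it lower in members, 1978 against 2245 CPM. P2ry12, the purinergic receptor of resting microglia, was lower in members of 6 of 6 libraries without passing the test (-0.50 ± 0.18, edgeR adjusted p = 0.411).

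More genes passed when the nuclei with neuron transcripts were left out of both classes. Of 2465 genes tested, 77 rose and 15 fell (3.73% called, 3.12% upward and 0.609% downward). Cxcl10 (4.05 ± 0.27), Ccl12 (2.25 ± 0.22), Csf1, Junb, Jun and Zfp36 stayed among those that rose, and Il1a (1.38 ± 0.29) and Tnfaip2 (1.06 ± 0.20) joined them, the last 2 and those that follow being named after their values were seen. The homeostatic genes that now fell were 2, the lineage factor Sall1 (-0.56 ± 0.17) and the CSF1 receptor Csf1r (-0.29 ± 0.08), and 2 interferon genes rose, Oasl2 (0.92 ± 0.24) and Ifi207 (1.07 ± 0.28). Without nuclei above 3 times the median UMIs of their library, 148 of 1903 genes were called (7.78%, with 2.26% downward), with Selplg (-0.74), Sall1 (-0.80), P2ry12 (-0.56), Siglech (-0.43) and Csf1r (-0.35) lower in members. With all nuclei the count also turned on single libraries: it was 6 without P301S/E4/TREM2-, 8 without P301S/E4/TREM2+, 10 without P301S/EKO/TREM2+ and 48 without P301S/EKO/TREM2-.

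**Figure D4:**
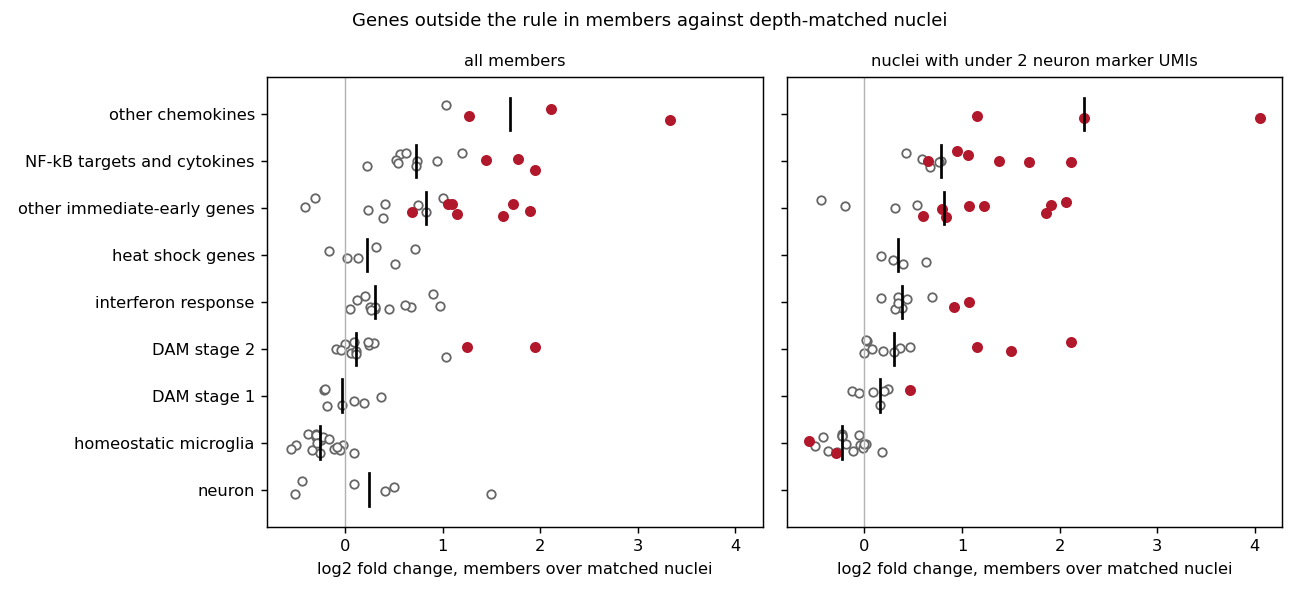
Log2 fold change of each tested gene of 9 lists, members over matched nuclei, with all nuclei (left) and with only nuclei of under 2 neuron marker UMIs (right); filled points passed the adjusted p of 0.05, open points did not, and black bars are list medians. Other chemokines, NF-kB targets and immediate-early genes lie mostly above 0 (medians 1.69, 0.73 and 0.83 on the left), while homeostatic genes lie mostly below 0.

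The authors' deposited marker table has a group named Inflam with 50 genes, led by Ccl4 (score 35.8) and Ccl3 (score 28.0), and 7 of the 10 rule genes are in it. Of its 40 other genes that could be tested, 13 rose in members and none fell. The authors chose that list from these same nuclei, so it is not independent evidence. In the authors' deposited table of terminally activated against homeostatic microglia, Atf3 had a log fold change of 3.06, Tnf 2.07 and Ccl4 1.66, in the log base of that table, which is not stated in it. These genes, Ier3 (2.07) and Ccl3 (1.64) had an adjusted p under 0.05 there. Egr2 (2.93), Ccl2 (1.54), Ier2 (0.81), Egr1 (0.19) and Egr3 (0.07) did not.

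Genotype differences within members were fitted to the 6 member sums with the same additive model (3049 genes, 2 residual degrees of freedom). Listed genes named in the genotype comparisons were picked after their values were seen. The expression filter worked by TREM2 state, so a gene near 0 in some backgrounds could enter through the libraries where it was high. The list counts and list medians of the tau and APOE4 comparisons can lean through this filter, and how far was not tested. Mutant tau gave the most calls, 50 genes up and 88 down (4.53% called, 1.64% upward and 2.89% downward). The 5 highest were the lipid-binding receptor gene Cd300lf (7.96), Arl5c (7.30), the class Ib antigen gene H2-Q7 (6.83), Tnfsf8 (6.80), which encodes CD30 ligand, and the Src-family kinase gene Fgr (5.22). Of 15 NF-kB targets and cytokines tested, 4 rose and none fell (median log2 fold change 1.42), and of 15 stage 2 DAM genes 4 rose and none fell (median 1.42), Csf1 being in both lists. Lpl reached 836 and 216 CPM in P301S/E4 members with and without TREM2, against 37.6 and 0 CPM in the E4 members (log2 fold change 4.64 ± 0.60, edgeR adjusted p = 0.00185). Csf1 was 612 and 535 CPM against 46.9 and 0 CPM (4.48 ± 0.62, edgeR adjusted p = 0.00253). Tlr2, a receptor of bacterial lipoproteins, rose by 3.92 ± 0.73 and the adhesion molecule Icam1 by 3.25 ± 0.56. The number of genes called rested on single libraries: leaving out E4/TREM2+ gave 38 and E4/TREM2- 69, and it was 78 without P301S/E4/TREM2-, 369 without P301S/EKO/TREM2+ and 461 without P301S/EKO/TREM2-. Where a group holds a 0, the size of the fitted fold change depends on the prior count.

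Of 15 interferon response genes tested, 5 rose with mutant tau and the median of the list was 2.19, against -0.01 over all genes. Mx1, an antiviral GTPase, was 39.2 and 187 CPM in members with mutant tau and 0 and 9.18 CPM without (4.15 ± 0.82, edgeR adjusted p = 0.0156). Ifi204, a DNA sensor, rose by 3.49 ± 0.57. Of 17 homeostatic genes tested, 3 fell and the median was -1.15: Tmem119 was 98.1 and 216 CPM with mutant tau and 385 and 624 CPM without (-1.91 ± 0.43, edgeR adjusted p = 0.0309), and Selplg and P2ry13 fell by 1.64 and 1.52 on the log2 scale.

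The genes that fell most with mutant tau were neuronal. Meg3 (-8.97), Dlgap1 (-8.56), Ryr2 (-8.06), Ptprn (-7.99) and Snhg11 (-7.50) were the 5 lowest, and all 8 neuron markers tested fell. Of the 14 members with 10 or more neuron UMIs, 11 were in the E4 libraries without mutant tau. With only members of under 2 neuron UMIs, 76 genes rose and 64 fell (7.53% of 1859, made up of 4.09% upward and 3.44% downward), and the microglial groups became clearer: 12 of 16 homeostatic genes fell (median -1.50), including P2ry12 (-1.76 ± 0.32) and Cx3cr1 (-1.34 ± 0.29), while 6 of 9 NF-kB targets and 6 of 15 interferon genes rose. Cxcl10 also rose (2.48 ± 0.47), at 285 and 1007 CPM with mutant tau against 237 and 0 CPM without. The lower homeostatic level was shared by matched nuclei of this setting. Their summed homeostatic list was 18495 and 17316 CPM in P301S/E4, TREM2+ first, against 38034 and 41993 CPM in E4. In members it was 18330 and 16282 CPM against 33518 and 42510 CPM.

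With APOE4 in place of no Apoe, 3 genes rose and 52 fell in members (1.8% called, 1.71% downward), and 6 of 8 neuron markers tested were among those that fell. Apoe itself rose by 7.67 ± 0.68, and the nuclear RNA Neat1 was 1063 and 1980 CPM in the P301S/E4 libraries against 399 and 350 CPM in the EKO libraries (1.79 ± 0.37, edgeR adjusted p = 0.0348). The interferon genes Rsad2 (-3.00 ± 0.56) and Mx1 (-2.32 ± 0.37) fell. With only members of under 2 neuron UMIs, 3 rose and 12 fell (0.807% called, 0.646% downward), and 7 of the 12 that fell were interferon genes. Among them, Rsad2 was 31.6 and 143 CPM with APOE4 against 617 and 943 CPM without Apoe (-3.19 ± 0.39). Cxcl10 also fell, from 1568 and 5412 CPM without Apoe to 285 and 1007 CPM with APOE4 (-2.38 ± 0.31, edgeR adjusted p = 1.91e-11), as did Ccl12 (-1.33 ± 0.34). These last 2 calls were not present with all members. The P301S/EKO/TREM2- sum held 34 members in all. With all members, the count was 183 without P301S/EKO/TREM2+, 97 without E4/TREM2+ and 87 without P301S/EKO/TREM2-.

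For TREM2, no gene was called within members (0% of 3049; edgeR's quasi-likelihood test, 85 genes at an unadjusted p under 0.05, and 1 call by DESeq2). Left-out libraries gave 0 to 20 calls, with 20 without P301S/EKO/TREM2- and 13 without P301S/EKO/TREM2+. Trem2 was 1059, 760 and 863 CPM in members of P301S/E4/TREM2+, E4/TREM2+ and P301S/EKO/TREM2+, and 464, 285 and 26.9 CPM in the TREM2- libraries (-1.67 ± 0.42, edgeR adjusted p = 0.786), with no overlap. With only members of under 2 neuron UMIs, 3 genes rose and 2 fell (0.269%). Trem2 (-1.62 ± 0.29) and Lpl (-1.92 ± 0.38) fell, and Rnf121 (2.34 ± 0.37), Mx1 (1.90 ± 0.38) and Cxcl10 (1.30 ± 0.30) rose, all named after their values were seen. Lpl was 964 against 251 CPM in the P301S/E4 pair, 405 against 164 CPM without Apoe, and 54.7 against 0 CPM in the E4 pair. Cxcl10 ran the other way in the 2 tau backgrounds, 285 to 1007 CPM and 1568 to 5412 CPM, and from 237 to 0 CPM in E4.

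**Figure D5:**
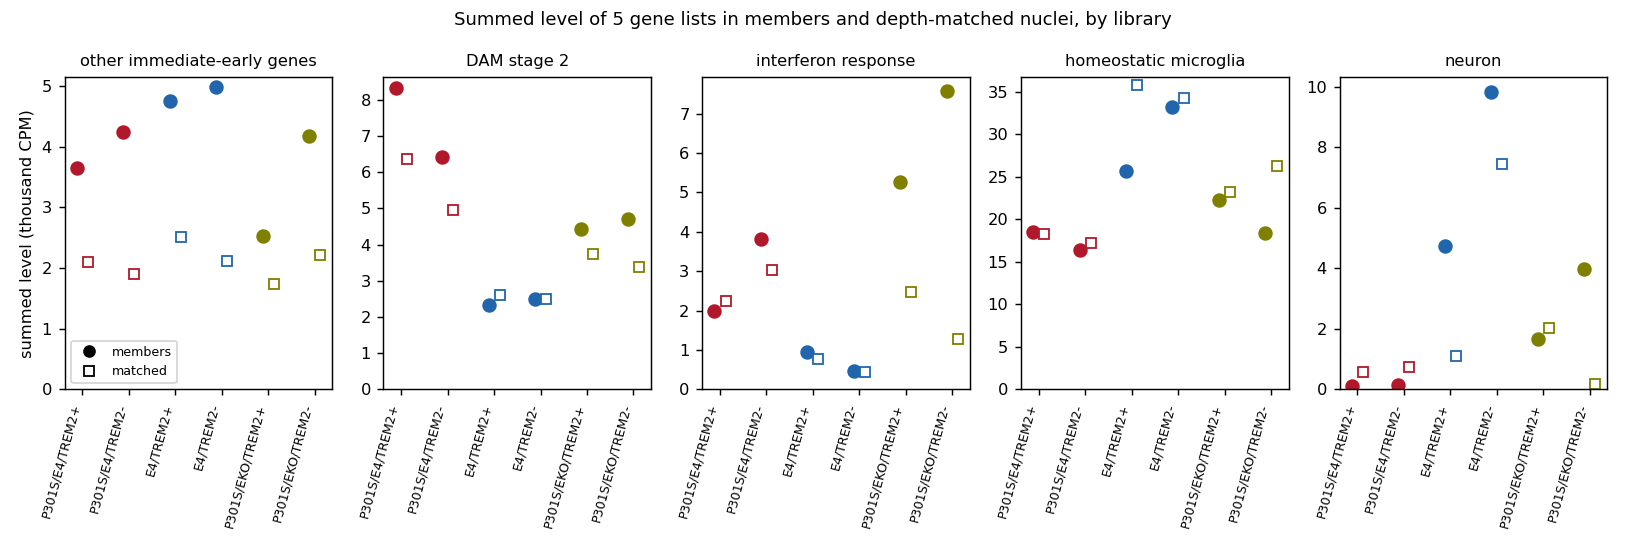
Summed CPM of 5 gene lists, divided by 1000, in members (filled circles) and matched nuclei (open squares) of the 6 libraries; red is P301S/E4, blue E4 and olive P301S/EKO, each axis starts at 0, and no error is drawn for these single sums. Other immediate-early genes are higher in members of every library, while the neuron list is highest in E4/TREM2- (9838 CPM in members and 7436 CPM in matched nuclei).

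Whether these genotype differences differed, in either direction, between members and matched nuclei was tested directly. The test was an interaction in one edgeR quasi-likelihood fit of the 12 sums. None of 3477 genes was called for TREM2, tau or APOE4 (0% each), with 53, 72 and 103 genes at an unadjusted p under 0.05, and DESeq2 called 0 in each. With only nuclei of under 2 neuron UMIs, 0, 1 and 2 of 2465 were called (0%, 0.0406% and 0.0811%). The 1 for tau was Icam1 (3.99 ± 0.72, edgeR adjusted p = 0.00316): in members it was 206 and 310 CPM with mutant tau and 36.5 and 12 CPM without, and in matched nuclei 120 and 124 CPM against 138 and 181 CPM. The member values without mutant tau rest on very few UMIs, so the size of this difference is uncertain. The 2 for APOE4 were Cxcl10 (-3.75 ± 0.61) and Ifi204 (-2.14 ± 0.37). Both had a lower log2 fold change for APOE4 in members than in matched nuclei, which does not mean a weaker effect. Cxcl10 itself fell with APOE4 in these members. For all other genes tested in that fit, a genotype difference particular to members was not detected.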

How the data were processed

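Single-nucleus RNA was counted in 6 libraries, 1 per genotype. The authors deposited filtered matrices of UMI counts per gene and nucleus, made with Cell Ranger 3.0.1 on mm10 from 10x v3.1 chemistry, per the file headers and the labels. Their deposited tables of fold, score and p-value compare nuclei, and the log base is not stated in them. The tests behind them treat nuclei as units. Members and gene lists were chosen with earlier results of these data known.

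Counts were summed per library and class. Differences were tested with edgeR 4.0.16 (TMM, filterByExpr, quasi-likelihood, Benjamini-Hochberg, call at 0.05), with DESeq2 1.42.0 as an alternative. On simulated data, the edgeR fit of members against matched nuclei and the tau and APOE4 contrasts within members were checked. DESeq2 and the interaction fit were not checked in this way. TREM2 share ratios were tested by exact sign-flip permutation over backgrounds. That test over libraries had been planned for the split choices and is not used, since the 10 genes were chosen together. The 10 rule and 5 exclusion genes were left out of tests within members. CPM is UMIs of a gene per 1e+06 UMIs of the summed nuclei. Intervals of shares and of counts are exact at 95%. Those of share ratios are approximate 95% intervals, symmetric on the log scale. A count of 0 was read as up to 3 counts. No doublet caller was run; the labels describe a sort gate on single nuclei. Reads of overlapping or near-identical genes could not be separated further.

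Genes were named by rule: among called genes, the 12 highest and 8 lowest log2 fold changes with at least 100 UMIs for members against matched nuclei, up to 4 called genes of each list, a few set genes (Nfkbia, Fos, Jun, Il1b, P2ry12, Cx3cr1), and the 5 highest and 5 lowest with at least 50 UMIs within members. Alternatives are given in the closing section. Leaving out nuclei with 2 or more neuron UMIs, and high-UMI nuclei from the genotype fits, was added after the data had been seen.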

Additional observations from a re-analysis of the deposited data

Results flagged for a closer look

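The ratio of the share of members in TREM2- to that in TREM2+ pointed in opposite directions between backgrounds: it was 0.816 in P301S/E4 and 0.395 in P301S/EKO, and 1.34 in E4. Among nuclei with at least 500 genes the ratios were 0.696, 0.478 and 0.843, all on the same side, and thinned to 500 UMIs the E4 ratio was 1.05. The difference between backgrounds was not tested, since each background has 1 library per TREM2 state.

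Chemokine and immediate-early transcripts also appeared in nuclei that the rule leaves out. Of 1042 passing nuclei with 2 or more UMIs of F13a1, Mrc1, Cd163, Cd209f and Cbr2, 38 (3.65%, 95% exact binomial interval 2.59 to 4.97) had 4 or more UMIs of the 10 genes. The median UMI count of these 1042 nuclei was 822.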

How the results depend on the processing

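Each genotype was 1 pool of nuclei, so genotype and pool cannot be told apart, and 2 residual degrees of freedom limit the genotype fits. No pairing by replicate number was possible because the groups share only the replicate number 1, so no fit had it as a block. Members and matched nuclei were paired by a library term, and TREM2- and TREM2+ libraries by background. Members against matched nuclei gave 23 calls; it gave 79 with no expression filter, 2 with no library term, 291 against all other nuclei, 52 and 8 with 3 or more and 6 or more rule UMIs, 11 with at least 500 genes, 148 without nuclei above 3 times the library median UMI, 92 with under 2 neuron UMIs, and 6 to 48 with 1 library left out. Within members, calls for TREM2, tau and APOE4 were 4, 425 and 205 with no filter. They were 221 (tau) and 27 (APOE4) with 3 or more rule UMIs and 10, 84 and 30 with 6 or more. TREM2 had 1 call by DESeq2, 6 without high-UMI nuclei and 5 with under 2 neuron UMIs, and APOE4 had 21 and 15 under the last 2 settings. With 1 library left out the counts ran from 0 to 20, 38 to 461 and 67 to 183. The interaction gave 1, 38 and 63 calls against all other nuclei, 13 (tau) and 36 (APOE4) with no filter, 3 and 3 without high-UMI nuclei, and 1 and 2 with under 2 neuron UMIs. The causes of these changes were not tested.

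Of the 10 rule genes over eligible nuclei, the number called for TREM2 was 1 with no filter and 0 to 1 with 1 library left out. For tau it was 2 by DESeq2, 2 with under 2 neuron UMIs, 2 without high-UMI nuclei and 1 to 5 with 1 library left out. For APOE4 it was 8 with no filter, 1 with under 2 neuron UMIs, 1 without high-UMI nuclei and 1 to 6 with 1 library left out. Log2 fold changes that turned sign were not called in the full data. With at least 500 genes these were Tnf (0.0075) and Atf3 (-0.12) for TREM2 and Ccl3 (0.048) for tau. With under 2 neuron UMIs they were Egr3 (0.80) and Ier3 (-0.012) for tau, and without high-UMI nuclei Egr3 (0.40). With 1 library left out, the TREM2 values ran from -0.41 to 0.12 for Ccl3, -0.50 to 0.18 for Tnf, -0.22 to 0.41 for Atf3 and -0.42 to 0.045 for Ier2. The tau values ran from -0.53 to 0.37 for Ccl3, -0.030 to 1.58 for Egr2 and -0.021 to 0.26 for Ier3, and the APOE4 values from -0.11 to 0.89 for Tnf and -0.20 to 1.29 for Egr1.

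The member share, for P301S/E4, then E4, each with TREM2+ first, and then P301S/EKO/TREM2+, was 4.12, 3.03, 2.57, 3.24 and 2.38% with 3 or more rule UMIs. With 6 or more it was 1.41, 1.17, 0.674, 0.784 and 0.851%, and 0.302% in P301S/EKO/TREM2-. With at least 500 genes it was 3.42% in P301S/E4/TREM2+, 2.38% in P301S/E4/TREM2-, 3.09% in E4/TREM2+, 2.60% in E4/TREM2-, 2.23% in P301S/EKO/TREM2+ and 1.07% in P301S/EKO/TREM2-. Without high-UMI nuclei P301S/E4/TREM2- was at 1.69%. Thinned to 500 UMIs with 2 or more, the shares were 4.47, 2.69, 3.54 and 3.72% in the first 4 libraries and 1.68% in P301S/EKO/TREM2-. With 3 or more they were 1.84 and 1.26% in the first 2 and 0.936% in P301S/EKO/TREM2+, and at 1000 UMIs with 4 or more the first 2 were 2.96 and 1.57%. The mean log2 TREM2 ratio ran from -0.82 to 0.064 with 1 background left out.

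Immediate-early genes in chemokine-chosen nuclei ran from 2.04 to 2.83 with 1 library left out and chemokines in immediate-early-chosen nuclei from 2.23 to 3.20; the latter was 2.56 with 3 or more UMIs. For the 10 genes read by the other 9, the outcome of the planned exact test is not given, since the 10 genes were chosen together. Of the single genes named in the report, 202 alternatives kept their side of the threshold, 37 lost the call and 3 gained it.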

Other observations

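Gene groups not described above moved little between members and matched nuclei by edgeR's quasi-likelihood test. Of 8 serum response and AP-1 regulator genes none was called, with a median log2 fold change of -0.01, and of 5 TNF and chemokine signalling receptor genes none was called, with a median of 0.10. Proliferation genes summed to 0 to 235 CPM (median 69.9) in members of the 6 libraries and 19.6 to 413 CPM (median 104) in matched nuclei. Border-associated macrophage markers summed to 162 to 716 CPM in members and 289 to 667 CPM in matched nuclei.

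The share of members with both chemokine or Tnf and immediate-early UMIs was, with TREM2+ before TREM2-, 64.9% and 59.9% for P301S/E4, 41.4% and 43.2% for E4, and 47.5% and 32.4% for P301S/EKO. The median UMI count of members differed between these libraries, from 718 to 1167, and its part in these shares was not tested.

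In the authors' deposited table of P301S/E4/TREM2+ against P301S/E4/TREM2-, the log fold change of the 10 genes ran from -1.09 for Ccl2 to 1.33 for Egr2, with an adjusted p of 1 for each.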
